A study of Mus musculus with 7 samples.

Results

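The genes described here are 10 members of the matricellular and cell-adhesive matrix glycoproteins, Fn1, Postn, Tnc, Sparc, Sparcl1, Thbs1, Thbs2, Tgfbi, Vcan and Fbln2. They were chosen by symbol, and all 10 were among the 32544 genes of the deposited table. RNA was measured by 3′ mRNA sequencing in whole abdominal aorta of male Apoe-/- mice, a model of atherosclerosis without apolipoprotein E. All mice ate a high-fat diet for 12 weeks and received 50 mg/kg of particles into the vein 1 time a week, either ITA-LNP (3 libraries) or Ctrl-LNP (4 libraries, called control-LNP here). Going by the series title, ITA was read as itaconate, a metabolite made by activated macrophages, and LNP was read as lipid nanoparticle. Every group therefore carried the Apoe deletion, the diet and a particle. The labels give no age and do not tie libraries to single mice, so the p-values reflect spread between libraries that may in part be technical.

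Matricellular glycoproteins are secreted proteins that bind both the extracellular matrix and receptors on cells, and they adjust adhesion, migration and growth factor access more than they bear load. In vessels they are made mainly by smooth muscle cells and fibroblasts, and several rise when the wall is injured or forms plaque. Some also come from blood cells: thrombospondin-1 is a major protein of platelet granules, and TGFBI and versican are made by monocytes and macrophages. Fibronectin, also included here, is the adhesive glycoprotein on which many of the others assemble.

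The libraries labelled control-LNP went against their labelled tissue. Compared with ITA-LNP libraries they were poor in markers of the vessel wall, smooth muscle markers being at 1.42% of the ITA-LNP mean and endothelial markers less reduced. They were rich in markers of platelets, red cells, monocytes, neutrophils, B cells and T cells. Every control-LNP value, and every fold against it, is that of libraries with this makeup. Markers of smooth muscle, 8 genes, summed to 17078 to 20840 CPM (reads per 1000000 reads) in ITA-LNP libraries and 155 to 461 CPM in the libraries labelled control-LNP, and none of the 8 was at 0 in any library. Fibroblast markers, 7 genes with none at 0 in any library, summed to 4561 to 5606 CPM in ITA-LNP and 43.3 to 157 CPM in control-LNP libraries. Endothelial markers, 7 genes, summed to 1024 to 1302 CPM in ITA-LNP and 222 to 455 CPM in control-LNP libraries. Their control-LNP mean was 0.284 times the ITA-LNP mean, with Cdh5 and Tie1 at 0 in control-LNP replicate 2. Platelet markers, 10 genes, summed to 45.6 to 153 CPM in ITA-LNP and 4975 to 6518 CPM in control-LNP libraries, with Gp1ba and Tubb1 at 0 in ITA-LNP replicates 1 and 3, Treml1 in ITA-LNP replicate 2, and Gp1ba in control-LNP replicate 2. Erythroid markers, 6 genes, summed to 2550.1 to 4229 CPM in ITA-LNP and 12386 to 44748 CPM in control-LNP libraries, with Slc4a1 at 0 in all ITA-LNP libraries and in control-LNP replicate 4. B cell markers, 6 genes, summed to 7.28 to 32.8 CPM in ITA-LNP and 601 to 1915 CPM in control-LNP libraries, with Pax5 at 0 in ITA-LNP replicate 1. T cell markers, 6 genes, summed to 0.627 to 16.2 CPM in ITA-LNP and 131 to 462 CPM in control-LNP libraries. Of the T cell markers, 5, 2 and 4 were at 0 in ITA-LNP replicates 1, 2 and 3. Depth was 5077073 to 7281721 reads. Control-LNP replicate 2 stood apart from its group, with 10846 genes detected against 14232 to 15333 in the other control-LNP libraries. Of 12636 genes tested, 1306 (10.3%) were higher and 651 (5.15%) lower in ITA-LNP libraries, a split that became 741 higher and 1249 lower when each library was centred on its median gene, and 1988 higher and 2065 lower without control-LNP replicate 2. The part that the share of wall and blood RNA in each library plays in the results below was not tested. Values from whole tissue cannot tell fewer cells of a type from less RNA per cell.

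Of the 10 genes, 8 were higher in ITA-LNP libraries by limma at an adjusted p under 0.05, against 10.3% of all genes tested, and the same 8 were higher without control-LNP replicate 2, against 15.4% of genes. For these 8, every ITA-LNP value lay above every control-LNP value, which held for 19.1% of genes tested. The other two, Thbs1 and Tgfbi, did not pass, and their values overlapped between the groups. All 10 passed the filter on low values, Tnc and Thbs2 only through their ITA-LNP level. Together the 10 genes took 10622, 9768 and 11357 CPM in ITA-LNP libraries, against 404, 329.8, 209 and 294 CPM in control-LNP replicates 1 to 4. In ITA-LNP libraries Fn1, Sparc and Postn made up 89.0% ± 1.31 of that sum, and in control-LNP libraries 24.1% ± 5.03 (SD, n = 3 and 4). These are the 3 genes with the highest ITA-LNP means, so the grouping is defined by values it describes. Thbs1 and Tgfbi, grouped after their values were seen, made up 2.78% ± 0.381 of the sum in ITA-LNP and 71.9% ± 7.27 in control-LNP libraries.

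Promoters of 4 members are shown so that the sequences upstream of genes that did and did not pass can be read side by side, those of 3 members that were higher in ITA-LNP libraries (Postn, Sparc and Thbs2) and of Tgfbi, which did not pass. RefSeq promoter windows on GRCm38.p6, the assembly of mm10, were on hand for 7 of the 10 members. Each sequence is the 250 bases before the start annotated in RefSeq, 5′ to 3′ on the gene's strand. These starts can differ from the ends of the GENCODE genes, whose coordinates are given below. The Sparc window lies inside the GENCODE gene, and the Tgfbi window runs past the GENCODE start. Capitals mark a match to a TATA box (TATAAA) or an Sp1 site (GGGCGG) on either strand.
Postn: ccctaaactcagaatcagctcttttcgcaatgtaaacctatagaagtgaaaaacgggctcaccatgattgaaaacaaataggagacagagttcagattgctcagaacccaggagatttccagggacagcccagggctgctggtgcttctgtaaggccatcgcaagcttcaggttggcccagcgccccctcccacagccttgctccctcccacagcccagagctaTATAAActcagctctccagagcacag
Sparc: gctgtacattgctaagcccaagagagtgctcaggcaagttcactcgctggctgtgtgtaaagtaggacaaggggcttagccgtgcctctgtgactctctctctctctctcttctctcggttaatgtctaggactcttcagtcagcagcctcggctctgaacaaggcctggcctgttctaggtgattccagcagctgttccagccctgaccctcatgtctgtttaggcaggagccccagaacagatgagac
Thbs2: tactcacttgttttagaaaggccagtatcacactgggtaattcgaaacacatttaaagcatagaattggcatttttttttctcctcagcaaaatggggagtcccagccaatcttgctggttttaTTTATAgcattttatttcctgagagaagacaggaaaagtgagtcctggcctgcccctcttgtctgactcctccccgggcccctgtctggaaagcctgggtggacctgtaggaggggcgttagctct
Tgfbi: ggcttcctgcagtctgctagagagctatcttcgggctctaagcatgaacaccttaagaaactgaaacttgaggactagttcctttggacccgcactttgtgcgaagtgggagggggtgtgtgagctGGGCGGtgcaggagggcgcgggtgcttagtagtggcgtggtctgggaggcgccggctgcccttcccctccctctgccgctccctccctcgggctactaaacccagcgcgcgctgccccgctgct
These windows lie at chr3:54360857-54361106 (plus strand), chr11:55420081-55420330 (minus strand), chr17:14694263-14694512 (minus strand) and chr13:56609336-56609585 (plus strand), in the order printed. The TATA box of Postn begins at base -26 from the start. The match of Tnc, whose window is not printed, begins at -126, and that of Thbs2, on the opposite strand, also at -126. Of the 7 windows, 3 held TATAAA (Postn, Thbs2 and Tnc), against 12.4% of 32851 RefSeq windows of the same length. GGGCGG was found in 4 (Fbln2, Tgfbi, Tnc and Vcan), against 32.7% of all windows. No member window held TGANTCA (the AP-1 site, 6.75% of windows), GGAATG (the TEAD site, 12.6%) or the CArG box of serum response factor (1.47%), all searched on both strands with overlapping matches allowed. These matches describe letters and not bound sites.

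Fn1 (chromosome 1, 71585520 to 71653200, minus strand) encodes fibronectin, the adhesive glycoprotein bound by integrins. It measured 4241, 3648 and 4277 CPM in ITA-LNP libraries, against 59.1, 23.5, 42.1 and 48.7 CPM in control-LNP libraries. The groups lay far apart, and Fn1 ranked 20 to 26 among all genes of an ITA-LNP library but 3057 to 3735 in a control-LNP library. The log2 fold change of CPM + 1 was 6.59 ± 0.36 (SE; adjusted p = 9.33e-06, limma), from means of 4055 ± 353 and 43.3 ± 15.0 CPM (SD, n = 3 and 4). Its control-LNP level rests on 973 reads, and the ratio of the means was 93.6.

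Both members of the SPARC pair were higher in ITA-LNP libraries. Sparc (chromosome 11, 55394500 to 55423183) encodes osteonectin, a collagen-binding protein that acts in collagen fibril assembly. It measured 3709, 3528 and 4558 CPM in ITA-LNP libraries, against 31.5, 24.2, 12.5 and 18.9 CPM in control-LNP libraries, and its log2 fold change was 7.50 ± 0.39 (adjusted p = 8.34e-06, limma). Its RefSeq window, printed above, lies inside these gene coordinates and held none of the motifs searched. Sparcl1 (chromosome 5, 104079111 to 104113733), its paralog hevin, measured 459, 448 and 392 CPM in ITA-LNP libraries, against 3.15, 1.64, 1.35 and 1.97 CPM in control-LNP libraries. No control-LNP value of either gene came near the lowest ITA-LNP value. The log2 fold change of Sparcl1 was 7.19 ± 0.64 (adjusted p = 0.000129, limma), on 46 reads in all control-LNP libraries. Within a library, Sparc stood at 7.88 to 11.6 times Sparcl1 in ITA-LNP and 9.29 to 14.7 times in control-LNP libraries, a log2 difference of -0.24 (exact two-sided permutation p = 0.40 over 35 splits). This p does not show that the pair changed equally, and it is 1 of 2 such ratios tested, the other being that of the thrombospondins.

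Postn (chromosome 3, 54361109 to 54391037) and Tgfbi (chromosome 13, 56609523 to 56639562) encode the fasciclin-domain proteins periostin, which acts in collagen cross-linking, and TGFBI, which links collagens to integrins. Postn measured 1446, 1429.6 and 1446 CPM in ITA-LNP libraries, against 11.2, 8.22, 5.39 and 7.54 CPM in control-LNP libraries. Its ITA-LNP values differed by a factor of 1.01 from lowest to highest, the narrowest range of the 10 genes. The log2 fold change was 7.35 ± 0.46 (adjusted p = 1.70e-05, limma). Tgfbi measured 48.6, 55.4 and 101 CPM in ITA-LNP libraries, against 39.8, 149.5, 41.9 and 21.6 CPM in control-LNP libraries. The highest value of Tgfbi was thus in control-LNP replicate 2, and the other three control-LNP libraries lay below all ITA-LNP libraries. Its log2 fold change was 0.41 ± 0.71 (95% interval -1.19 to 2.01; adjusted p = 0.766, limma), 0.95 without control-LNP replicate 2 (interval -0.04 to 1.94, adjusted p = 0.132) and -0.71 with median centring (adjusted p = 0.740). Its adjusted p was 0.103 to 0.984 over all alternatives. Without control-LNP replicate 2 the control-LNP mean of Tgfbi was 34.5 CPM in place of 63.2 CPM.

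Of the thrombospondins, Thbs2 passed and Thbs1 did not. Thbs1 (chromosome 2, 118111876 to 118127133) encodes thrombospondin-1, which inhibits angiogenesis through CD36 and binds CD47, and Thbs2 (chromosome 17, 14665500 to 14694235) encodes the closest paralog. Thbs1 measured 257, 248 and 167 CPM in ITA-LNP libraries, against 245, 119, 91.0 and 190.4 CPM in control-LNP libraries. The lowest ITA-LNP value lay below control-LNP replicates 1 and 4, and the log2 fold change was 0.55 ± 0.44 (95% interval -0.44 to 1.54; adjusted p = 0.471, limma; 0.314 to 0.731 over the alternatives), or -0.58 with median centring. Thbs2 measured 38.3, 43.5 and 62.3 CPM in ITA-LNP libraries, against 0.985, 0.748, 0.577 and 1.31 CPM in control-LNP libraries. Thbs2 was higher in every ITA-LNP library, with a log2 fold change of 4.67 ± 0.81 (adjusted p = 0.00366, limma), but its control-LNP level rests on 21 reads. The ratio of reads per depth was 53.3 with a 95% counting interval of 34.7 to 86.6. Within a library, Thbs1 stood at 2.67 to 6.71 times Thbs2 in ITA-LNP and at 145 to 249 times Thbs2 in control-LNP libraries. That log2 difference of -5.21 had an exact two-sided permutation p of 0.0286, the smallest that 35 splits can give, and 0.0571 when adjusted over the 2 ratios. Thbs2 values lay apart and Thbs1 values overlapped, as given above, so this smallest p was settled before the test. No conclusion is drawn from it. The control-LNP ratios divide by 5, 5, 3 and 8 Thbs2 reads in replicates 1 to 4.

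**Figure D1:**
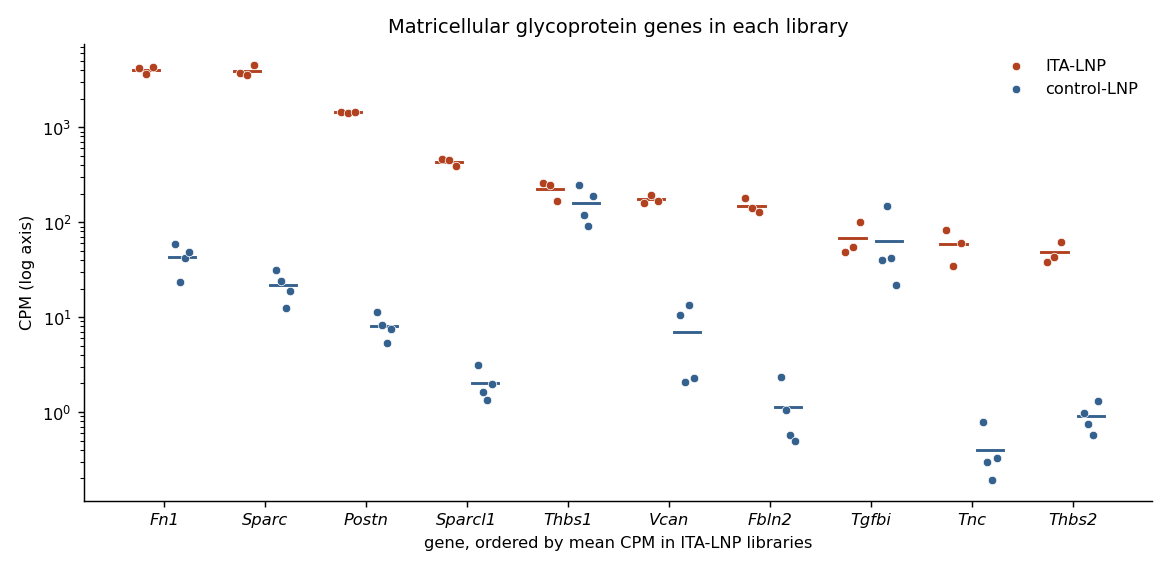
CPM of each gene in each library on a log axis, with 3 ITA-LNP points (red) left of 4 control-LNP points (blue) and a bar at each mean. For 8 genes all ITA-LNP points lie above all control-LNP points, while the points of Thbs1 (means 224 and 161 CPM) and Tgfbi (68.4 and 63.2 CPM) overlap.

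**Figure D2:**
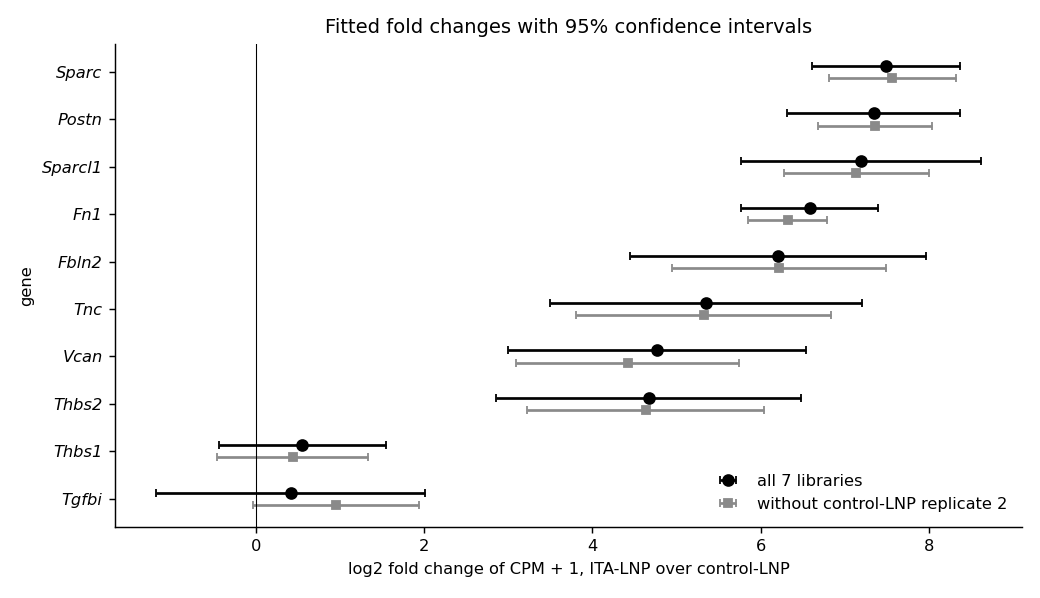
Log2 fold change of CPM + 1, ITA-LNP over control-LNP, with 95% confidence intervals from limma, for all 7 libraries (black circles) and without control-LNP replicate 2 (grey squares). The intervals of 8 genes lie above 0, and those of Thbs1 and Tgfbi include 0 in both fits, the estimates of these 2 genes being below 0 with median centring.

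Vcan, Tnc and Fbln2 complete the set of large multidomain glycoproteins. Vcan (chromosome 13, 89655312 to 89742509) encodes versican, a hyaluronan-binding proteoglycan that builds up in lesions. It measured 160.1, 194 and 166 CPM in ITA-LNP libraries, against 10.4, 2.09, 13.3 and 2.30 CPM in control-LNP libraries. Control-LNP replicates 1 and 3 were thus well above replicates 2 and 4, a range of 6.34-fold, and all were below the ITA-LNP libraries (log2 fold change 4.77 ± 0.79, adjusted p = 0.00293, limma). Fbln2 (chromosome 6, 91212455 to 91272540), fibulin-2, which binds fibronectin and versican, measured 180.1, 139.7 and 127 CPM in ITA-LNP libraries, against 2.36, 1.05, 0.577 and 0.492 CPM in control-LNP libraries. Its fold change of 6.21 ± 0.78 (adjusted p = 0.000827, limma) rests on 25 control-LNP reads, and its control-LNP mean of 1.12 CPM was 0.705 CPM without replicate 1. Tnc (chromosome 4, 63959785 to 64047015), tenascin-C, an anti-adhesive glycoprotein of remodelling tissue, measured 81.9, 34.3 and 60.8 CPM in ITA-LNP libraries. In control-LNP replicates 1 to 4 Tnc had 4, 2, 1 and 2 reads, or 0.788, 0.299, 0.192 and 0.328 CPM. The ratio of reads per depth of Tnc was 150.2 with a 95% counting interval of 78.8 to 329, and the log2 fold change was 5.35 ± 0.83 (adjusted p = 0.00216, limma). Such intervals cover counting error only.

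In order of mean level within ITA-LNP libraries the genes ran Fn1, Sparc, Postn, Sparcl1, Thbs1, Vcan, Fbln2, Tgfbi, Tnc and Thbs2, at 4055, 3932, 1440.4, 433, 224, 174, 149, 68.4, 59.0 and 48.0 CPM. Reads in these libraries come from the 3′ end of transcripts, so gene length does not enter CPM, and splice forms such as those of Fn1, Tnc and Vcan cannot be told apart. Values of neighbours in that order overlapped for Fn1 and Sparc, for Thbs1, Vcan and Fbln2, and for Tgfbi, Tnc and Thbs2. In control-LNP libraries the order began with Thbs1, Tgfbi, Fn1 and Sparc, at 161, 63.2, 43.3 and 21.8 CPM, each overlapping the next. After Sparc came Postn, Vcan, Sparcl1, Fbln2, Thbs2 and Tnc, at 8.09, 7.02, 2.03, 1.12, 0.905 and 0.402 CPM, and of these steps only that from Sparc to Postn showed no overlap. The libraries of the ITA-LNP group agreed on single genes within 1.01-fold (Postn) to 2.38-fold (Tnc), and those of the control-LNP group within 2.08-fold (Postn) to 6.91-fold (Tgfbi).

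Each gene was next set against 3 fibrillar collagen genes of the same library, Col1a1, Col1a2 and Col3a1, whose sum was 16297 ± 1419 CPM in ITA-LNP and 126 ± 42.8 CPM in control-LNP libraries. This ratio sets each gene against wall transcripts counted in the same library, and it is given as a description. Sparc stood at 21.1%, 23.9% and 27.5% of the collagens in ITA-LNP libraries, against 17.8%, 17.6%, 16.6% and 16.6% in control-LNP libraries. Postn stood at 8.88% ± 0.737 against 6.53% ± 0.505 and Sparcl1 at 2.67% ± 0.339 against 1.62% ± 0.288 in ITA-LNP and control-LNP libraries (SD, n = 3 and 4), with no overlap. Tnc stood at 0.355% ± 0.117 in ITA-LNP against 0.302% ± 0.0996 in control-LNP libraries and Fbln2 at 0.913% ± 0.132 against 0.824% ± 0.374, with overlap. The control-LNP shares of Tnc and Fbln2 rest on 9 and 25 reads and are the least certain of these 5 genes. For these 5 genes the control-LNP share was thus 0.608 to 0.902 times the ITA-LNP share, although their CPM differed 133-fold to 214-fold. Against the summed smooth muscle markers in place of the collagens it was 0.344 to 0.514 times. The share of Fn1 was 24.9% ± 0.825 in ITA-LNP and 37.3% ± 16.4 in control-LNP libraries, with overlap.

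The remaining 4 genes stood higher against the collagens in control-LNP libraries, Thbs2 and Vcan by less than Thbs1 and Tgfbi. Thbs2 was at 0.296% ± 0.0789 of the collagens in ITA-LNP and 0.756% ± 0.287 in control-LNP libraries, the latter on only 21 reads. Vcan was at 1.08% ± 0.212 in ITA-LNP against 6.77% ± 7.51 in control-LNP libraries, or 3.15% without control-LNP replicate 3. Thbs1 was at 1.46%, 1.68% and 1.01% in ITA-LNP libraries, against 138%, 86.1%, 121% and 168% in control-LNP libraries. Tgfbi was at 0.277%, 0.375% and 0.609% in ITA-LNP libraries, against 22.4%, 108.6%, 55.8% and 19.1% in control-LNP libraries. The control-LNP share was 92.8 times the ITA-LNP share for Thbs1 and 122 times for Tgfbi, whose control-LNP mean of 51.5% was 32.4% without replicate 2. Against the smooth muscle markers these values were 52.1 and 93.2 times. The control-LNP share of Thbs2 was then 1.51 times and that of Vcan 2.84 times the ITA-LNP share, with overlap between the groups, against 2.55 and 6.28 times without overlap for the collagens. For Fn1 the direction of the means turned, with overlap between the groups for both references. Its share against smooth muscle markers was 21.7% ± 2.71 in ITA-LNP against 17.0% ± 3.83 in control-LNP libraries.

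**Figure D3:**
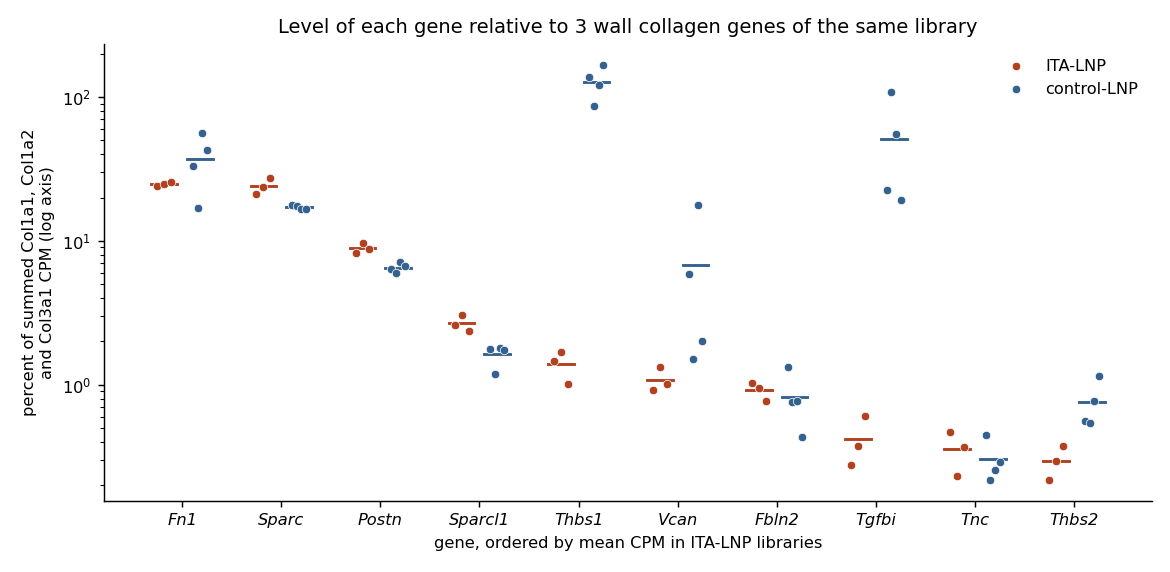
CPM of each gene as a percent of the summed Col1a1, Col1a2 and Col3a1 CPM of the same library, on a log axis, with ITA-LNP points (red) left of control-LNP points (blue) and a bar at each mean. Fn1, Sparc, Postn, Sparcl1, Fbln2 and Tnc lie within 1.64-fold between group means, while control-LNP means of Thbs1 (128%) and Tgfbi (51.5%) lie far above the ITA-LNP means (1.38% and 0.421%).

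Thbs1, Vcan and Tgfbi were set beside markers of blood cells. The platelet markers of control-LNP replicates 1 to 4 summed to 4975, 6407, 5556 and 6518 CPM, where Thbs1 was 245, 119, 91.0 and 190.4 CPM. Replicate 2 thus had the second-highest platelet sum and a lower Thbs1 level than replicates 1 and 4. Monocyte markers, 6 genes with none at 0 in any library, summed to 67.3, 11.5 and 25.3 CPM in ITA-LNP libraries and 1253, 651, 887 and 725 CPM in control-LNP libraries. Replicates 1 and 3 had the highest sums, as they had the highest Vcan values of the group, but in reverse order (10.4 and 13.3 CPM). Replicates 2 and 4, with monocyte sums of 651 and 725 CPM, had Vcan at 2.09 and 2.30 CPM. Neutrophil markers, 6 genes of which Ly6g was at 0 in ITA-LNP replicate 3 and control-LNP replicate 1, summed to 67.3, 85.6 and 45.6 CPM in ITA-LNP libraries and 916, 26065, 10156 and 1035 CPM in control-LNP libraries, and the highest value was that of control-LNP replicate 2, which also had the highest Tgfbi but the lowest monocyte sum. Replicates 1 and 3 had nearly equal Tgfbi values (39.8 and 41.9 CPM) at neutrophil sums of 916 and 10156 CPM. Macrophage markers, 8 genes of which C1qb was at 0 in control-LNP replicate 4, summed to 504 to 735 CPM in ITA-LNP and 258 to 551 CPM in control-LNP libraries. The part of these cell types in the levels of Thbs1, Vcan and Tgfbi was not tested.

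**Figure D4:**
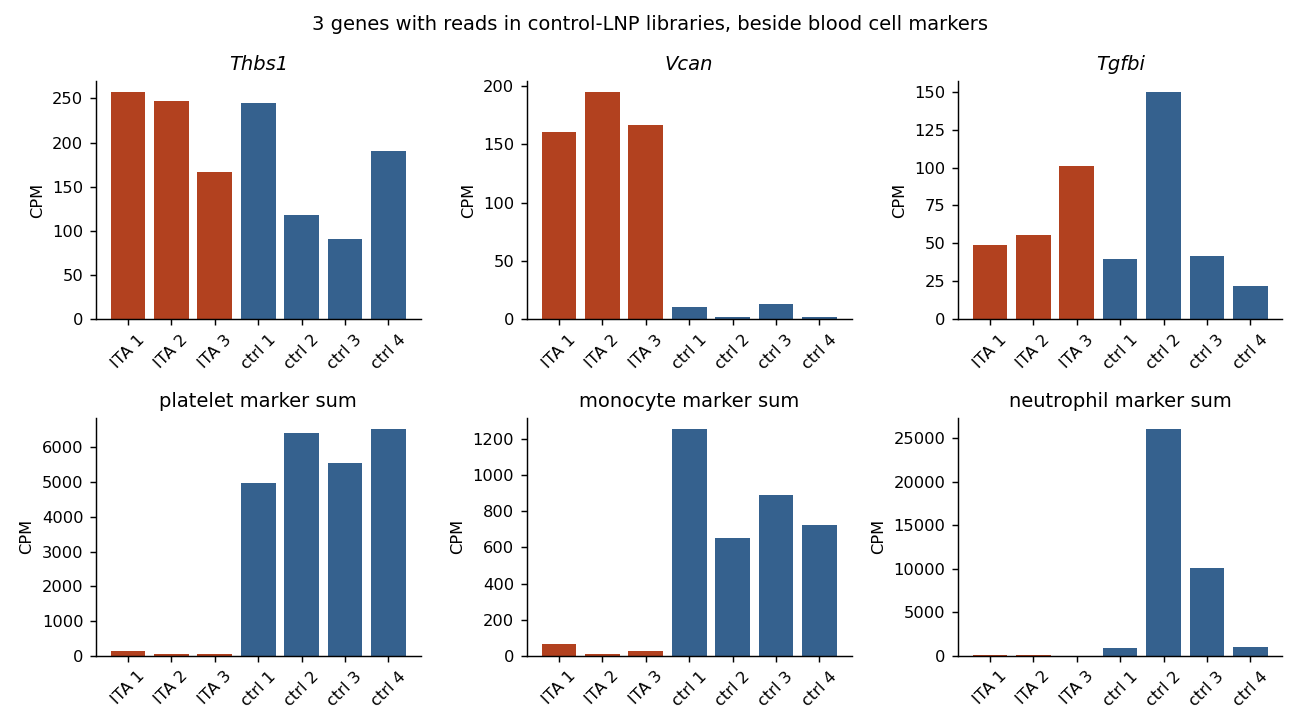
CPM of Thbs1, Vcan and Tgfbi (top) and summed CPM of platelet, monocyte and neutrophil markers (bottom) in each library, with ITA-LNP libraries (red) left of control-LNP libraries (ctrl, blue). Each marker sum is higher in every control-LNP library than in any ITA-LNP library, and Tgfbi and the neutrophil sum are both highest in control-LNP replicate 2 (149.5 and 26065 CPM), where the monocyte sum is the lowest of the group (651 CPM).

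Related genes were read from 3 lists chosen for their roles. Of 38 other matrix glycoproteins, 33 were tested, of which 25 were higher in ITA-LNP libraries and 8 did not pass, against 10.3% higher among all genes tested. Their median log2 fold change was 4.93, beside 5.78 for the 10 genes and 0.15 for all genes tested. Of the list, Igfbp7, a growth factor-binding protein of vessel basement membranes, was at 3722 against 17.3 CPM (log2 fold change 7.69 ± 0.38, adjusted p = 5.84e-06, limma) in ITA-LNP and control-LNP libraries. Spp1, which encodes osteopontin, was at 3717 against 17.2 CPM. Fbln5, a fibulin needed for elastic fibre assembly, was at 1589 against 7.89 CPM, and Nov, the CCN family member CCN3, at 1422 against 7.55 CPM.

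Cell-surface receptors for these proteins went both ways. Of 27 listed, 25 were tested, of which 14 were higher and 4 lower in ITA-LNP libraries, against 10.3% higher and 5.15% lower among all genes tested. The median log2 fold change was 3.60. Without control-LNP replicate 2 there were 17 higher and 5 lower, against 15.4% and 16.0% of all genes, so that the lower count was near the background. Without ITA-LNP replicate 3 there were 13 higher and 2 lower, with the replicate number as a block 9 higher and 2 lower, and without an intensity trend 2 lower. Itga8, the integrin chain of smooth muscle that pairs with beta-1 and binds fibronectin and tenascin-C, was at 1237 against 6.84 CPM (7.33 ± 0.47, adjusted p = 2.03e-05, limma). The proteoglycan Cspg4 of mural cells was at 268 against 0.466 CPM, Sdc2 (syndecan-2) at 224 against 2.34 CPM, and the collagen receptor Ddr2 at 212 against 1.88 CPM. The lower genes were Itga2b and Itgb3, the chains of the platelet fibrinogen receptor, Itga4, an integrin chain of leukocytes that binds fibronectin, and Cd44, the hyaluronan receptor. Itga2b was at 3.87 against 502 CPM, or 1.49 CPM without ITA-LNP replicate 1 (-6.97 ± 0.63, adjusted p = 0.000139, limma) and Itga4 at 26.4 against 283 CPM (-3.34 ± 0.49, adjusted p = 0.00167). Itgb3 was at 83.6 against 296 CPM (-1.99 ± 0.49, adjusted p = 0.0210). Itgb3 no longer passed when ITA-LNP replicate 1 or 3, or replicate 1 or 4 of control-LNP, was left out (adjusted p up to 0.0613). Cd44 was at 165 against 654 CPM (-1.96 ± 0.49, adjusted p = 0.0224) and no longer passed when ITA-LNP replicate 2 or 3 was left out (up to 0.0961). CD36 and CD47 bind thrombospondin-1 and are named after their values were seen. Cd36 was at 898 against 30.3 CPM (5.32 ± 0.83, adjusted p = 0.00222), and Cd47 at 347 against 547 CPM did not pass (-0.57 ± 0.37, 95% interval -1.39 to 0.25, adjusted p = 0.351).

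Enzymes that cleave or cross-link these proteins were mostly higher in ITA-LNP libraries. Of 18 listed, 16 were tested, 11 of them higher and 1 lower, against 10.3% and 5.15% of all genes tested, so that the lower count was near the background. The median log2 fold change was 4.61. Adamts1, a protease that cleaves versican, was at 627 against 2.70 CPM (7.39 ± 0.60, adjusted p = 8.89e-05, limma). Lox, which cross-links collagen and elastin, was at 233 against 1.41 CPM, the gelatinase Mmp2 at 158 against 0.479 CPM, and Tgm2, a transglutaminase that cross-links fibronectin, at 458 against 14.3 CPM. The lower gene was Mmp9, a gelatinase that neutrophils store, at 3.48 against 113 CPM (-4.86 ± 1.11, adjusted p = 0.0148). Its ITA-LNP mean was 0.363 CPM without replicate 1, and its control-LNP mean 60.9 CPM without replicate 2. Mmp9 no longer passed when ITA-LNP replicate 2 or 3, or replicate 3 of control-LNP, was left out (adjusted p up to 0.0620). Nor did Mmp9 pass with limma-voom on recovered reads or with the replicate number as a block.

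**Figure D5:**
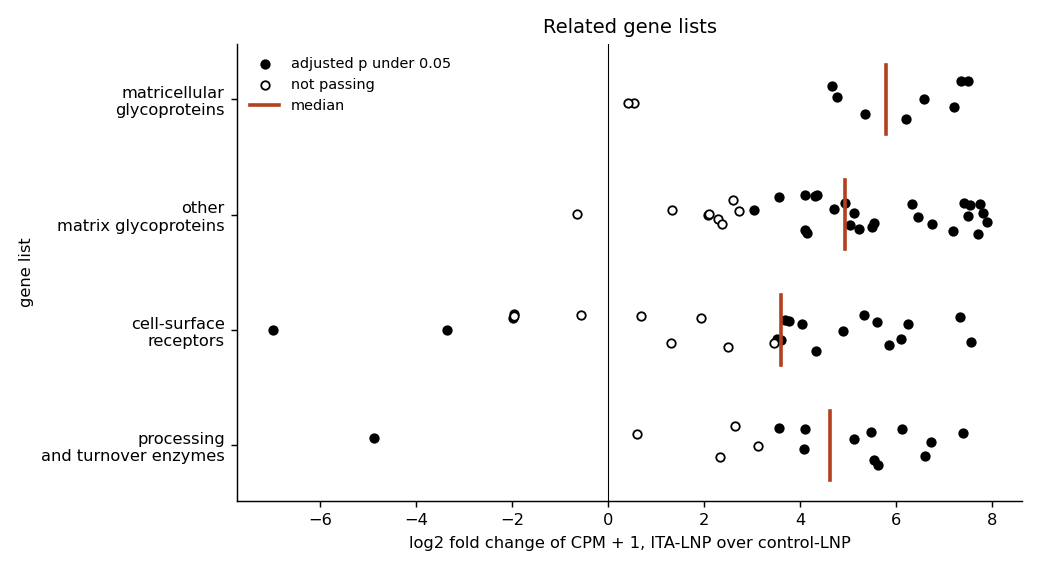
Log2 fold change of CPM + 1, ITA-LNP over control-LNP, for each tested gene of 4 lists, with filled points for an adjusted p under 0.05 (limma), open points for genes that did not pass and a red line at each median. Medians lie at 5.78, 4.93, 3.60 and 4.61 from top to bottom, and the 5 filled points below 0 are 4 receptors and 1 enzyme.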

How the data were processed

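Total RNA of whole abdominal aorta (500 ng) was made into QuantSeq 3′ mRNA libraries, per the labels' protocols, and mm10 is the genome build, per the submitters' processing notes. Aligner, counter, annotation and strand setting are not stated in the sources used here. Deposited by the authors were log10 values, read as log10 of CPM + 1 because 10 to the power of each value, less 1, sums to 1000000 per library. All values were whole multiples of 1 read within a tolerance of 0.01, which gave the depth. A count of 0 allows up to 3 reads, or 0.412 to 0.591 CPM.

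Groups came from the sample titles. CPM were tested as log2(CPM + 1), a pseudocount of 1 CPM that understates the change of low genes, with limma-trend (limma 3.58.1, R 4.3.3), ITA-LNP against control-LNP without covariates, in genes with a mean log2(CPM + 1) of at least 1, with Benjamini-Hochberg adjustment over all 12636 genes tested and a threshold of 0.05. The fit was tested on simulated counts. The alternatives were other filters, pseudocounts, scalings, priors, weights and thresholds, a replicate block, limma-voom on recovered reads, and leaving out each library. The members and lists were chosen with earlier results of these data known. All members were named, and of each related list up to 4 higher and 4 lower genes by p.

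Coordinates are from GENCODE M21 on mm10. Exons of Fn1, Tnc and Thbs1 overlap annotated genes on the opposite strand, at least 3120 bases from their 3′ ends. Permutation tests used scipy 1.17.1, tables pandas 2.3.3 in Python 3.11.15, and plots matplotlib 3.10.9.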

Additional observations from a re-analysis of the deposited data

Results flagged for a closer look

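Of 48 sets of 4 control-LNP values examined, 4 had 1 library far from the others by Dixon's criterion, which chance meets in about 1 of 20 sets, and in each it was control-LNP replicate 2. Tgfbi was at 149.5 CPM in that replicate and at 21.6 to 41.9 CPM in the others. Sparcl1 stood at 1.19% of the wall collagens there and at 1.74% to 1.79% in the others. These shares rest on few reads, 11 of Sparcl1 there and 16, 7 and 12 in control-LNP replicates 1, 3 and 4. Cd44 was at 1237 CPM there and at 392 to 519 CPM in the others. The B cell markers summed to 601 CPM there and to 1707 to 1915 CPM in the others. No explanation was tested.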

How the results depend on the processing

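Of the 20 alternative settings, that with a threshold of 0.1 reads the main fit and so cannot lose a call. All 160 values of the 8 higher genes under these 20 settings kept their direction and their call, and 8 genes were called in each. Thbs1 and Tgfbi did not pass in any, and both turned negative with median centring (-0.58 and -0.71), which moved the median of all genes tested from 0.15 to -0.98 on the log2 scale. Of 340 values of 17 related genes, 17 lost their call, all of Itgb3, Cd44 or Mmp9, and the rest kept direction and call. These 17 genes were named for their small p, and the whole lists moved more. With median centring the higher genes went from 25 to 18 for other matrix glycoproteins, from 14 to 13 for receptors and from 11 to 8 for enzymes. With the replicate block 18 other matrix glycoproteins and 9 enzymes were higher. The 1957 changed genes became 3015 with quantile normalization, 4343 with sample weights and 4325 without control-LNP replicate 2 and median centred, and ranged from 1387 to 4053 when each library was left out. Those higher, 1306, became 741 with median centring and 2100.0 with sample weights (984 to 1988 with a library left out). Those lower, 651, became 1249 with median centring, 1401 with quantile normalization, 2243 with sample weights and 2548 without control-LNP replicate 2 and median centred (401 to 2065 with a library left out). Higher genes were 66.7% of calls, but 37.2% with median centring, 53.5% with quantile normalization and 48.4% with sample weights. With the replicate block 1060 genes were called, 738 higher and 322 lower, and the 8 genes kept their calls, while receptors went from 14 to 9 higher and from 4 to 2 lower and the 1 lower enzyme did not pass. Deviations of libraries with the same number correlated at 0.0053, -0.010 and -0.017, so the numbers were not taken as pairs. The summed share of the 10 genes against the collagens was lower in ITA-LNP libraries, by -1.95 on the log2 scale (-1.99 to -1.90 with a library left out), and by -1.12 against smooth muscle markers. Thbs1 and Tgfbi made up 71.9% of that sum in control-LNP libraries. With a library left out, single shares against the collagens differed by positive values for Sparc, Postn, Sparcl1 and Tnc. They differed by negative values for Fn1, Thbs1, Thbs2, Tgfbi and Vcan, and by either sign for Fbln2. The cause of these shifts was not tested. Low control-LNP read counts limit the folds of Tnc, Thbs2 and Fbln2 most.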
